A study of Homo sapiens with 4 samples.

Results

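Integrins and adhesion receptors are the surface proteins by which leukocytes hold on to vessel walls, matrix and each other. The 10 genes described here were chosen by their symbols. They are the integrin α chain genes ITGAL, ITGAM, ITGAX, ITGA4 and ITGA5, the integrin β chain genes ITGB2, ITGB1 and ITGB7, the hyaluronan receptor gene CD44 and SELPLG, which encodes the selectin ligand PSGL-1. Between them they have 23 of the 28581 RefSeq transcript rows with values in the MV4-11 table. Values were FPKM (fragments scaled to the exon length of a transcript and to the mapped reads of a library), a level per length that can be compared between genes, and the rows of a gene were summed in each library. This gave 16490 genes, of which 12142 had a mean of at least 0.5 FPKM and were tested. All 10 genes were among them.

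An integrin is a pair of an α and a β chain that reach the cell surface together. The β2 chain pairs with αL (LFA-1), αM (Mac-1) and αX, and is made by leukocytes. Mac-1 and αXβ2 bind complement-coated particles and mark myeloid maturation, while LFA-1 binds ICAM proteins. The β1 chain pairs with α4 (VLA-4, a receptor for VCAM-1 and fibronectin) and with α5 (the classical fibronectin receptor), and VLA-4 anchors leukemic blasts in the marrow. The β7 chain pairs with α4 in lymphocytes that home to the gut. CD44 and PSGL-1 are not integrins, and both take part in the homing of hematopoietic cells to the marrow.

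MV4-11 is a human AML cell line of myelomonocytic type. The control group was 2 libraries of cells carrying the hairpin sh-NC, labelled as having CEBPG, and the knockdown group was 2 libraries of cells carrying 1 hairpin against CEBPG, sh-CEBPG#3. Per the methods, hairpins were delivered in the lentiviral vector pLKO.1-puro and stable cells were selected with puromycin, so both groups carry a vector and its resistance gene. Whether a group's 2 libraries stem from separate infections or cultures is not given in the sources used here, so the p-values measure the spread between these libraries, which may be technical. With 1 CEBPG hairpin, an effect of the hairpin and of CEBPG loss cannot be told apart.

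CEBPG, the targeted gene, was at 30.4 and 33.6 FPKM in the control libraries, against 19.2 and 17.1 FPKM upon CEBPG knockdown. FPKM totals lay between 364353 and 389766, and depth is unknown. The line's own markers FLT3 (71.3 FPKM in sh-NC cells, mean of 2), HOXA9 (33.6), MEIS1 (6.99) and CD33 (27.5) were present. KIT, another AML marker, was too low to be tested, with means of 0.154 FPKM in sh-NC and 0.0117 FPKM in sh-CEBPG#3 cells. CD34 was not analysed here. Of the 8 listed markers of the line and of AML, 6 were tested. Of these, 3 rose (CD33, MPO and SPI1) and 2 fell (HOXA9 and MEIS1) at the adjusted p under 0.05 used below. Of all genes tested, 18.5% rose and 23.8% fell at this threshold. CD14, the defining monocyte marker, was at a mean of 0.0933 FPKM in sh-NC cells and 0.894 FPKM in sh-CEBPG#3 cells. Erythroid and T cell markers were not analysed here, and the 4 of 5 B cell markers with values summed to between 2.83 and 3.24 FPKM per library. Of these, PAX5 passed the test as lower (mean 2.09 FPKM in sh-NC cells, 1.39 FPKM in sh-CEBPG#3 cells). Of 5 epithelial markers 2 were tested. KRT8 (mean 2.32 FPKM in sh-NC cells, 6.23 FPKM in sh-CEBPG#3 cells) passed as higher. KRT18 (mean 10.2 FPKM in sh-NC cells, 9.16 FPKM in sh-CEBPG#3 cells) did not pass. Of 4 platelet markers only GP9 was tested, and it passed as higher, with 0.539 and 2.16 FPKM by group mean. ITGA2B of that list had group means of 0.111 FPKM (sh-NC) and 0.0663 FPKM (sh-CEBPG#3) and was too low to be tested.

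Upon CEBPG knockdown, 5 of the 10 adhesion genes differed between the groups at an adjusted p under 0.05 (limma with Benjamini-Hochberg adjustment over all genes tested). ITGAX, ITGB2, ITGB1 and ITGA5 rose and ITGAL fell. ITGAM, ITGA4, ITGB7, CD44 and SELPLG did not pass. In bulk RNA, more cells with a transcript and more transcript per cell cannot be told apart. The background is high in this comparison: 42.2% of all genes tested passed, 18.5% higher and 23.8% lower, so 5 of 10 is a share near the background. Values of 8 of the 10 genes did not overlap between the groups, 7 higher and 1 lower, where 31.5% of all genes tested were higher without overlap and 40.2% lower, 71.7% together. None of the 10 passed the study's own threshold in limma (p under 0.05 before adjustment with a log2 fold change beyond 1 in either direction), which 2.36% of all genes passed as higher and 1.05% as lower, 3.41% together. The study applied this threshold with DESeq2, so these limma shares are not the study's own result. Before adjustment 6 of the 10 had a p under 0.05 in limma, against 50.6% of all genes tested. ITGAX passed the study's threshold with a pseudocount of 0.1 or 0.01 in place of 1. The median log2 fold change of the 10 genes was 0.14, and that of all genes tested was -0.04.

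**Figure D1:**
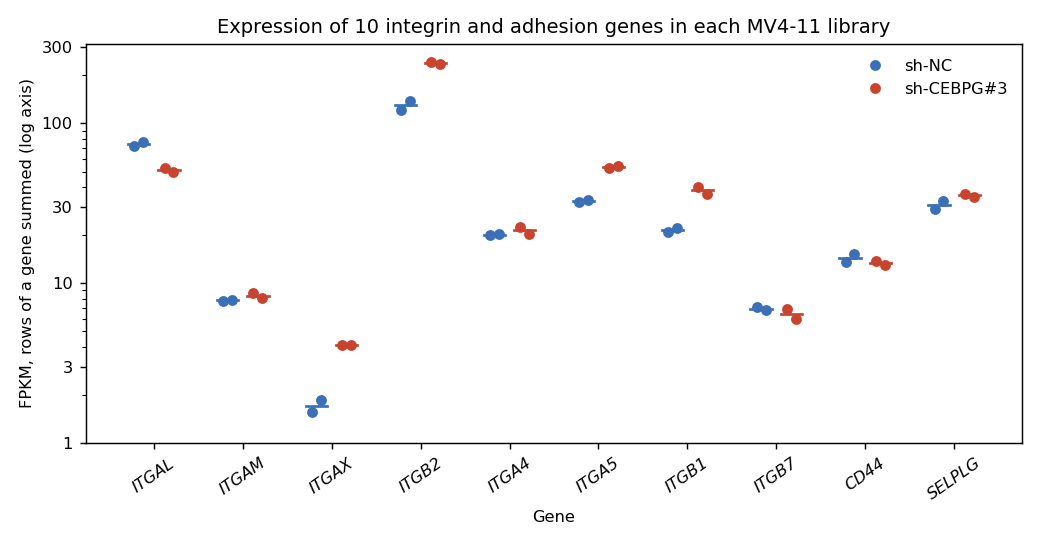
Expression of the 10 genes in each library, as FPKM summed over the rows of a gene, on a log axis. Points are libraries (2 sh-NC, 2 sh-CEBPG#3) and short lines are group means. ITGAX, ITGB2, ITGA5 and ITGB1 lie higher and ITGAL lower in both sh-CEBPG#3 libraries, and the groups overlap for ITGB7 and CD44.

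The levels spanned a wide range in the control cells. ITGB2 led with a mean of 130 FPKM, followed by ITGAL with 74.6 FPKM, ITGA5 with 32.7 FPKM, SELPLG with 30.9 FPKM, ITGB1 with 21.7 FPKM, ITGA4 with 20.04 FPKM, CD44 with 14.4 FPKM, ITGAM with 7.80 FPKM, ITGB7 with 6.93 FPKM and ITGAX with 1.70 FPKM. ITGA5 and SELPLG were the only neighbours in this order whose library values overlapped. In sh-CEBPG#3 cells ITGB2 still led with 240 FPKM and ITGAX was still last with 4.09 FPKM. ITGA5 (53.4 FPKM) now stood above ITGAL (51.2 FPKM), and ITGB1 (38.2 FPKM) and SELPLG (35.5 FPKM) overlapped. The highest SD within a group was 11.9% of its mean, for ITGAX in sh-NC cells.

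ITGB2 (chromosome 21, 44885953 to 44928815; GRCh38 positions here and below, from RefSeq) encodes the shared β2 chain. It was at 122 and 138 FPKM in the control libraries, against 244 and 235 FPKM upon CEBPG knockdown. Both knockdown libraries lay above both control libraries. The mean rose from 130 ± 11.4 to 240 ± 6.46 FPKM (SD, n = 2 each), a 1.84-fold difference, with a log2 fold change of 0.88 (standard error 0.08) on the log2(FPKM + 1) scale and an adjusted p of 1.88e-05 in limma. It was the most abundant gene of the 10 and lay above 96.8% of all genes tested by log2 fold change. Its 2 RefSeq rows were split unevenly, also between libraries of a group. NM_000211 had 109 and 138 FPKM in the control libraries, against 185 and 218 FPKM upon CEBPG knockdown. NM_001303238 had 12.9 and 0.188 FPKM in the control libraries, against 59.5 and 17.4 FPKM upon CEBPG knockdown. When each row was tested by itself, an alternative added with the data in view, NM_000211 had a log2 fold change of 0.70 with an adjusted p of 0.0687 in limma. In the fit with the highest row of each gene in place of the sum, the same row passed (0.70, adjusted p = 0.0267 in limma). The antisense gene ITGB2-AS1 shares 303 bases of exon with ITGB2 and was listed at 0 and 0.621 FPKM in the control libraries, against 2.74 and 2.53 FPKM upon CEBPG knockdown. The use of strand in the processing is not given in the sources used here, and reads of such a pair cannot then be told apart.

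Of the α chains that pair with β2, ITGAX rose, ITGAL fell and ITGAM did not pass the test. ITGAX (chromosome 16, 31355176 to 31382999), the gene of CD11c, was at 1.56 and 1.85 FPKM in the control libraries, against 4.08 and 4.10 FPKM upon CEBPG knockdown, a 2.40-fold difference of the means. This was the highest fold of the 10 genes at their lowest level: 15.5% of the genes tested had a lower level in sh-NC cells. The change on the log2 scale was 0.92 (standard error 0.11, adjusted p = 0.000134 in limma), and 1.22 and 1.27 with pseudocounts of 0.1 and 0.01, since a pseudocount of 1 understates the change of a gene near 1 FPKM.

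ITGAL (chromosome 16, 30472742 to 30523185) encodes CD11a, the α chain of LFA-1. It was at 72.2 and 76.9 FPKM in the control libraries, against 52.6 and 49.8 FPKM upon CEBPG knockdown. The mean fell from 74.6 ± 3.34 to 51.2 ± 1.98 FPKM (SD, n = 2 each), so 68.6% of the control level was left, with a log2 fold change of -0.53 (standard error 0.07, adjusted p = 0.000321 in limma). The groups did not overlap, and 8.62% of all genes tested had a lower log2 fold change. Its main row NM_002209 had 65.6, 61.2, 48.5 and 43.3 FPKM in the same order of libraries and, tested by itself, a log2 fold change of -0.46 with an adjusted p of 0.054 in limma. The second row, NM_001114380, had between 4.07 and 15.7 FPKM.

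ITGAM (chromosome 16, 31259975 to 31332877) encodes CD11b, the α chain of Mac-1 and a marker of myeloid maturation. It was at 7.74 and 7.85 FPKM in the control libraries, against 8.70 and 8.02 FPKM upon CEBPG knockdown. The values did not overlap, and the difference was 1.07-fold. Its log2 fold change was 0.09 with a 95% confidence interval from -0.11 to 0.29 (adjusted p = 0.451 in limma). Row NM_000632 carried between 59.1% and 81.4% of the gene in a library, and both ends of this range were sh-NC libraries.

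**Figure D2:**
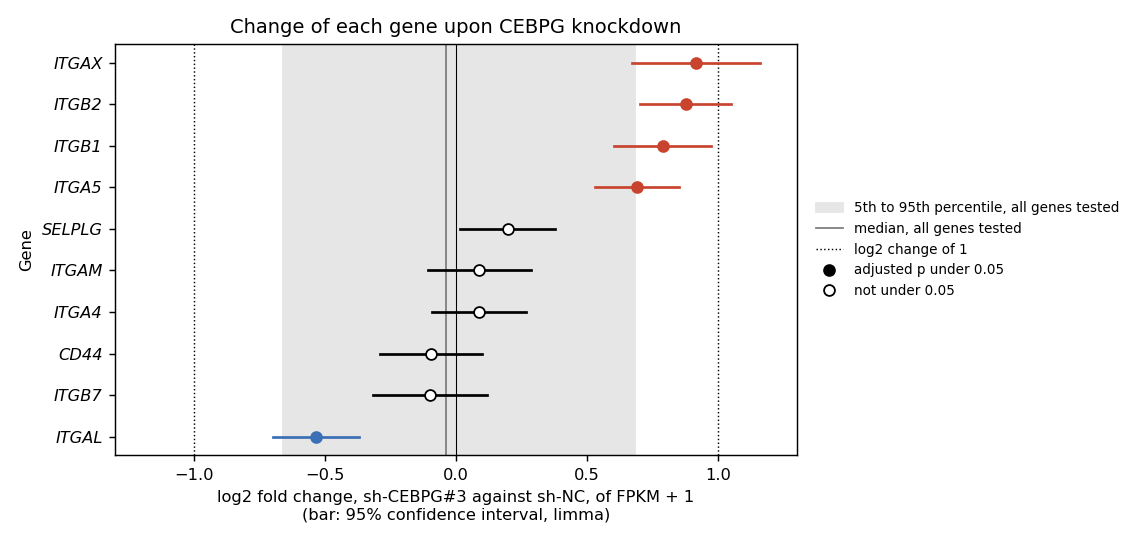
Log2 fold change of each of the 10 genes (points) with its 95% confidence interval from limma (bars), sh-CEBPG#3 against sh-NC on the log2(FPKM + 1) scale. Filled points had an adjusted p under 0.05, with genes that rose in red and the gene that fell in blue. The grey band runs from the 5th to the 95th percentile of all genes tested (-0.66 to 0.68); ITGAX, ITGB2, ITGB1 and ITGA5 lie beyond its upper edge and no estimate reaches the dotted lines at a log2 change of 1.

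The balance of β2 family transcripts also differed between the libraries of the 2 groups. ITGAL, ITGAM and ITGAX summed to 81.5 and 86.6 FPKM in the control libraries, against 65.4 and 61.9 FPKM upon CEBPG knockdown, while ITGB2 was higher. The ratio of ITGB2 to this sum was 1.498 and 1.60 in the control libraries, against 3.74 and 3.80 upon CEBPG knockdown. The β chain transcript was thus above the summed α chain transcripts in every library, by 1.55 ± 0.0693-fold in sh-NC cells and 3.77 ± 0.0432-fold in sh-CEBPG#3 cells (SD, n = 2 each). ITGAL took 88.6% and 88.8% of the α chain sum in the controls, against 80.4% in both knockdown libraries. ITGAX took 1.91% and 2.13% in the control libraries, against 6.24% and 6.62% upon CEBPG knockdown, and ITGAM took 9.28% and 13.1% by group mean. None of these groups overlapped, and the exact two-sided permutation test gave p = 0.333 for each, the smallest that 2 against 2 libraries allow. With the highest row of each gene in place of the sum, the ratio of ITGB2 to the α chain sum differed 2.08-fold between the groups in place of 2.43-fold.

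**Figure D3:**
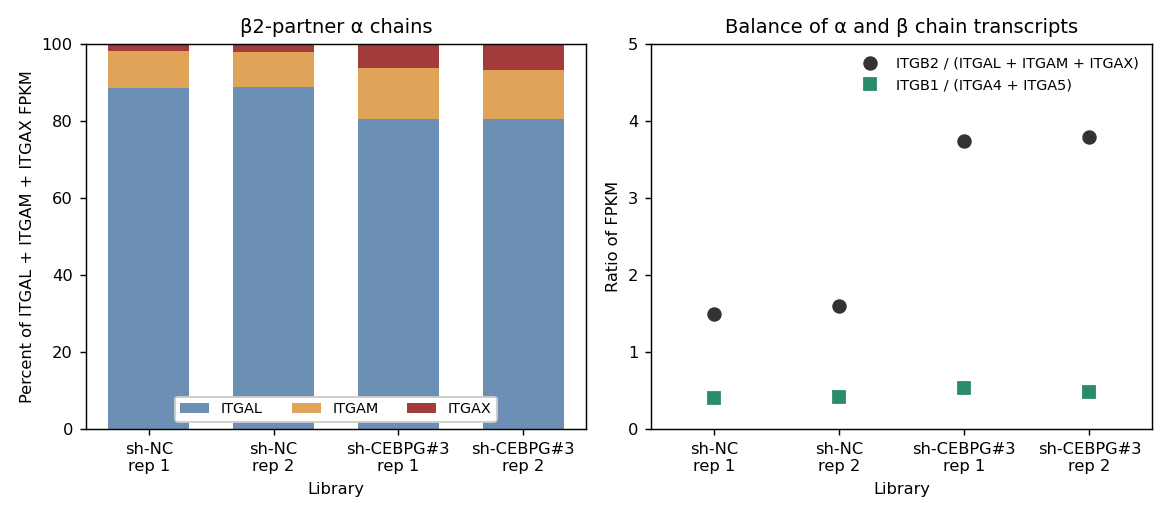
Left, the share of ITGAL, ITGAM and ITGAX in their summed FPKM in each library, in percent. Right, the ratio of ITGB2 to these 3 α chains summed (circles) and of ITGB1 to ITGA4 and ITGA5 summed (squares) in each library. ITGAX takes about 2.02% of the sum in sh-NC cells and 6.43% in sh-CEBPG#3 cells, and the ITGB2 ratio has a mean of 1.55 in sh-NC and 3.77 in sh-CEBPG#3 cells.

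Among the β1 family, ITGB1 and its partner ITGA5 rose together, and ITGA4 did not pass the test. ITGB1 (chromosome 10, 32900318 to 32958230), the β1 chain, was at 21.1 and 22.3 FPKM in the control libraries, against 40.3 and 36.1 FPKM upon CEBPG knockdown. The groups did not overlap. The mean rose 1.76-fold, with a log2 fold change of 0.79 (standard error 0.08, adjusted p = 5.56e-05 in limma). Row NM_002211 carried at least 97.3% of ITGB1 in every library and passed by itself (log2 fold change 0.80, adjusted p = 0.022 in limma). ITGA5 (chromosome 12, 54395261 to 54419266), the α chain of the fibronectin receptor, was at 32.1 and 33.3 FPKM in the control libraries, against 52.8 and 54.0 FPKM upon CEBPG knockdown. It rose 1.63-fold, with a log2 fold change of 0.69 (standard error 0.07, adjusted p = 5.32e-05 in limma), and its spread within each group was at most 0.853 FPKM (SD).

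Since ITGB1 and ITGA5 rose together, the 250 bases before the RefSeq start of each are shown, both on the minus strand and written in the direction of transcription (GRCh38.p14, chr10:32958231-32958480 for ITGB1 and chr12:54419267-54419516 for ITGA5). Capitals mark matches to 3 motifs searched on both strands: TTGCNNAA for C/EBP, TGATGNAA for a C/EBP-ATF composite and GAGGAA for the core of ETS sites such as those of PU.1.
ITGB1: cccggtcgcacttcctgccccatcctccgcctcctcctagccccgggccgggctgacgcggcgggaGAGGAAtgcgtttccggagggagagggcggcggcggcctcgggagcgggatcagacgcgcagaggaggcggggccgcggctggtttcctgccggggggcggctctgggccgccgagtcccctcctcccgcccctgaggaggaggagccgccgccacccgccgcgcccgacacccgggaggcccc
ITGA5: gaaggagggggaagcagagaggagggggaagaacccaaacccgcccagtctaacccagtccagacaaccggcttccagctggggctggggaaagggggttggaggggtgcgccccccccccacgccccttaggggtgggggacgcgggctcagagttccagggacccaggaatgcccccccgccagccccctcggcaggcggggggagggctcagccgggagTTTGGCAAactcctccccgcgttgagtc
The ITGA5 window holds a match to the C/EBP motif on the opposite strand, 28 bases before the start, and the ITGB1 window a match to the ETS core, 184 bases before it. Windows of 300 bases (250 before and 50 after a start) were listed for 6 of the 10 genes, 7 windows in all, and not for ITGAL, ITGAX, ITGB2 and SELPLG. A C/EBP match was found in 1 of the 7 windows and in 10.5% of all 35116 windows of this length, an ETS core match in 3 of the 7 (ITGB1, ITGB7 and ITGAM) and in 27.9% of all, and a composite match in 0 of the 7 and in 3.62% of all. No matches to different motifs overlapped in these windows. A match is a description of the letters and not of binding.

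ITGA4 (chromosome 2, 181457205 to 181538940), the α chain of VLA-4, was at 19.9 and 20.2 FPKM in the control libraries, against 22.3 and 20.4 FPKM upon CEBPG knockdown. Its log2 fold change was 0.09 with a 95% confidence interval from -0.09 to 0.27 (adjusted p = 0.406 in limma). ITGB1 was at 1.06 and 1.10 times the level of ITGA4 in the control libraries, and at 1.80 and 1.77 times upon CEBPG knockdown. ITGA5 took 61.7% and 62.3% of the sum of ITGA4 and ITGA5 in the control libraries, against 70.3% and 72.5% upon CEBPG knockdown. These groups did not overlap either, with p = 0.333 in the exact two-sided permutation test. The ratio of ITGB2 to ITGB1 overlapped between the groups, with 5.80 and 6.21 in sh-NC and 6.06 and 6.51 in sh-CEBPG#3 libraries. The 8 integrin chains together summed to 284 and 307 FPKM in the control libraries, against 432 and 413 FPKM upon CEBPG knockdown, 1.43-fold by the means.

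ITGB7 (chromosome 12, 53191323 to 53207251), the β7 chain, was at 7.05 and 6.81 FPKM in the control libraries, against 6.92 and 5.93 FPKM upon CEBPG knockdown. The groups overlapped. The log2 fold change was -0.10 with a 95% confidence interval from -0.32 to 0.12 (adjusted p = 0.45 in limma). In the GENCODE annotation 42.3% of the exon bases of ITGB7 lie over exons of ZNF740 on the opposite strand (between 9.67 and 10.6 FPKM per library), and 26.4% of those of ITGA4 over exons of CERKL, which was not analysed here. These are shares of annotated exon bases and not of FPKM. The levels of ITGB7 and ITGA4 are uncertain by an amount that was not tested.

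CD44 (chromosome 11, 35139171 to 35232402) encodes the main receptor for hyaluronan, and its transcripts differ by variable exons. It was at 13.6 and 15.2 FPKM in the control libraries, against 13.8 and 13.0 FPKM upon CEBPG knockdown, with overlap between the groups. The log2 fold change was -0.09 with a 95% confidence interval from -0.29 to 0.10 (adjusted p = 0.417 in limma). NM_001001391, the standard form without variable exons, carried 92.5% and 90.4% of CD44 in the control libraries, against 88.8% and 84.3% upon CEBPG knockdown. The other 5 rows were low. NM_001202555 was listed at 0.587, 1.11, 0 and 1.38 FPKM, and NM_001001390 at 0.250, 0.117, 1.02 and 0.150 FPKM, so the 2 sh-CEBPG#3 libraries differed by more than the group means did. NM_001001389 was listed at 0 in both sh-NC libraries and at 0.269 FPKM in each sh-CEBPG#3 library, and it was too low to be tested.

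SELPLG (chromosome 12, 108621895 to 108633894), the gene of PSGL-1, was at 29.1 and 32.7 FPKM in the control libraries, against 36.2 and 34.8 FPKM upon CEBPG knockdown. The groups did not overlap, and the difference was 1.15-fold. The log2 fold change of 0.20 (95% confidence interval 0.02 to 0.38) had an unadjusted p of 0.0356 and an adjusted p of 0.0756 in limma, so it did not pass. It passed in limma with equal FPKM totals (adjusted p = 0.0224), with quantile normalization (adjusted p = 0.0116) and without sh-NC replicate 2 (0.28, adjusted p = 0.0108). Its rows were divided differently in sh-CEBPG#3 replicate 2 than in the other libraries. NM_001206609 had 14.7 FPKM there, or 42.3% of the gene, and at most 0.371 FPKM elsewhere. With the highest row alone, NM_003006, the log2 fold change of SELPLG was -0.19.

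**Figure D4:**
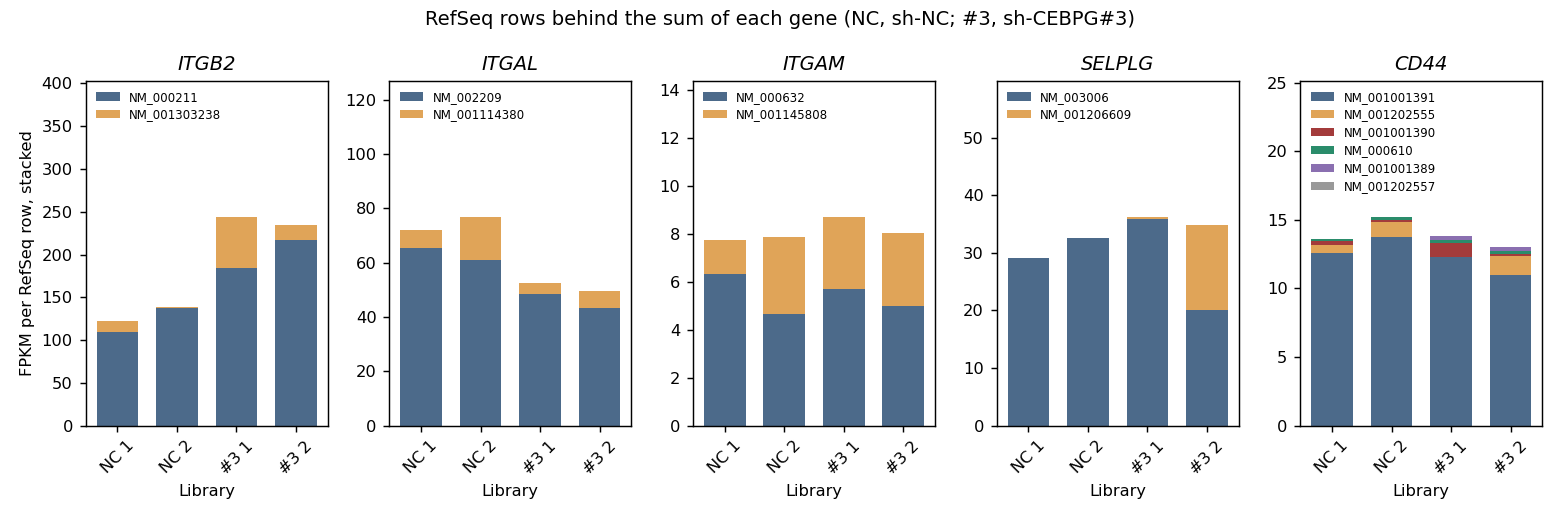
FPKM of the RefSeq rows behind the sum of ITGB2, ITGAL, ITGAM, SELPLG and CD44 in each library, stacked; the whole bar is the value of the gene. The bars of a group are alike in height, while the split into rows differs between libraries of a group, most for NM_001206609 of SELPLG (0.371 against 14.7 FPKM) and NM_001303238 of ITGB2 (59.5 against 17.4 FPKM).

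Of the 23 rows of the 10 genes, 16 had a mean of at least 0.5 FPKM. Tested row by row over 18624 rows, 3 passed an adjusted p under 0.05 in limma, those of ITGAX, ITGA5 and ITGB1, where 8.24% of all rows did. All 3 come from genes with a single row or a row that carried nearly the whole gene.

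Genes that work with these receptors were taken from lists of integrin chains, adhesion complex proteins, ligands, PSGL-1 and CD44 partners and other adhesion molecules. Beside the genes named by rule, a few were named after their values were seen: FERMT3, RASGRP2, PTK2, TLN1, VCAM1, FN1, FUT4, ICAM1, ICAM3, F11R, ICAM4, ICAM5, B4GALT1, TPST2, C1GALT1, EZR, CD81 and ITGAE. Of 18 other integrin chains, 13 had values, 4 were tested and 1 passed, 25% beside the background of 42.2%. ITGA7, a laminin-binding α chain that pairs with β1, rose from a mean of 11.4 to 15.2 FPKM (log2 fold change 0.39, adjusted p = 0.00472 in limma). ITGAE, which pairs with β7, had 2.62 and 1.90 FPKM (adjusted p = 0.0595 in limma) and did not pass, and none of the 4 fell. Without sh-NC replicate 1, 1 gene of this list fell.

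Of the proteins that switch integrins on and tie them to actin, 25 of 29 were tested, and 7 rose and 4 fell, 44% in all against the background of 42.2%. The median log2 fold change was -0.05. FLNA, the filamin that links β chains to actin, rose from 160 to 255 FPKM (0.67, adjusted p = 5.91e-05 in limma) and ZYX, a focal adhesion protein, from 107 to 162 FPKM (0.60, adjusted p = 0.000176). FERMT3, the kindlin that activates leukocyte integrins, rose from 48.8 to 69.1 FPKM (0.49, adjusted p = 0.000573 in limma). RASGRP2, which activates RAP1 upstream of integrins, fell from 30.7 to 19.7 FPKM (-0.62, adjusted p = 0.000229), and PTK2, the focal adhesion kinase, from 12.2 to 8.88 FPKM (-0.41, adjusted p = 0.00313). TLN1, the talin of leukocytes, had 44.7 and 43.7 FPKM (adjusted p = 0.78 in limma). Without sh-CEBPG#3 replicate 1, 4 genes of this list rose in place of 7.

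Of the ligands and counter-receptors, 10 of 23 were tested, 6 rose and 2 fell, 80% in all, where 18.5% of all genes tested rose and 23.8% fell. The median log2 fold change was 0.47. C3, whose fragments are ligands of Mac-1 and αXβ2, was at 6.84 and 7.92 FPKM in the control libraries, against 52.5 and 50.3 FPKM upon CEBPG knockdown (log2 fold change 2.65, adjusted p = 2.61e-08 in limma). SPP1, osteopontin, is a ligand of CD44 and of several integrins. It was listed at 0.0666 and 0 FPKM in the control libraries, against 4.28 and 3.39 FPKM upon CEBPG knockdown (log2 fold change 2.22). SPP1 reached the filter of 0.5 FPKM through the sh-CEBPG#3 libraries alone. The filter thus left little room for a call other than higher, and SPP1 is counted among the 6 that rose. The LFA-1 ligands moved both ways. ICAM3 rose from 40.0 to 79.0 FPKM (0.96, adjusted p = 5.96e-06 in limma), ICAM1 from 9.73 to 16.3 FPKM and F11R, or JAM-A, from 11.7 to 22.6 FPKM, while ICAM4 fell from 15.0 to 9.71 FPKM and ICAM5 from 14.4 to 8.86 FPKM. The VLA-4 ligands VCAM1 and FN1 had means of at most 0.106 FPKM in either group and were not tested.

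For PSGL-1 to bind selectins its sugars must be built and its tyrosines sulfated. All 11 genes of this list were tested, and 3 rose and 4 fell, 63.6% in all beside the background of 42.2% (median log2 fold change -0.07). FUT7, the fucosyltransferase that completes sialyl Lewis x, was at 24.9 and 26.9 FPKM in the control libraries, against 15.3 and 15.5 FPKM upon CEBPG knockdown, a log2 fold change of -0.71 (standard error 0.08, adjusted p = 8.55e-05 in limma). TPST2, a tyrosine sulfotransferase, fell from 11.6 to 8.11 FPKM and C1GALT1, which makes the core of the sugar chains, from 3.21 to 1.74 FPKM. Its chaperone C1GALT1C1 rose from 6.26 to 9.14 FPKM (0.48, adjusted p = 0.00169 in limma), as did B4GALT1 from 7.98 to 11.1 FPKM. ST3GAL6, a sialyltransferase, was at 0.359 and 1.47 FPKM in the control libraries, against 3.21 and 2.84 FPKM upon CEBPG knockdown (1.13, adjusted p = 0.00292). FUT4, another fucosyltransferase, did not pass, with 33.4 and 33.3 FPKM by group mean.

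Of 12 partners, splicing regulators and sheddases of CD44, 11 were tested, 4 rose and 1 fell, 45.5% in all and near the background of 42.2%, with a median log2 fold change of 0.01. CD74, which uses CD44 as its signalling partner, rose from 87.8 to 181 FPKM (1.04, adjusted p = 3.55e-06 in limma), and ADAM17, a protease that sheds adhesion receptors, from 7.41 to 14.2 FPKM (0.85, adjusted p = 4.25e-05). EZR, ezrin, which ties CD44 to actin, fell from 41.5 to 28.3 FPKM (-0.53, adjusted p = 0.000371). Without sh-CEBPG#3 replicate 1, 2 genes of this list rose in place of 4, and without sh-NC replicate 1, 2 fell in place of 1. Among other leukocyte adhesion molecules 19 of 23 were tested, 10 rose and 2 fell, 63.2% in all beside the same background, with a median log2 fold change of 0.47. PLAUR, the urokinase receptor and a partner of Mac-1, was at 18.1 and 20.1 FPKM in the control libraries, against 56.3 and 51.7 FPKM upon CEBPG knockdown (1.46, adjusted p = 1.1e-06 in limma). PECAM1, which guides leukocytes between endothelial cells, rose from 20.2 to 42.1 FPKM (1.03, adjusted p = 1.65e-05 in limma). The receptor CD48 rose from 1.61 to 6.90 FPKM (1.59) and the tetraspanin CD81 from 64.9 to 120 FPKM (0.88). SLAMF7, counted among the 10 that rose, had 0.0578 and 3.90 FPKM by group mean (2.21). It reached the filter of 0.5 FPKM through the sh-CEBPG#3 libraries alone, which left little room for a call other than higher. Without sh-NC replicate 2, and without sh-CEBPG#3 replicate 2, 1 gene of this list fell in place of 2.

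**Figure D5:**
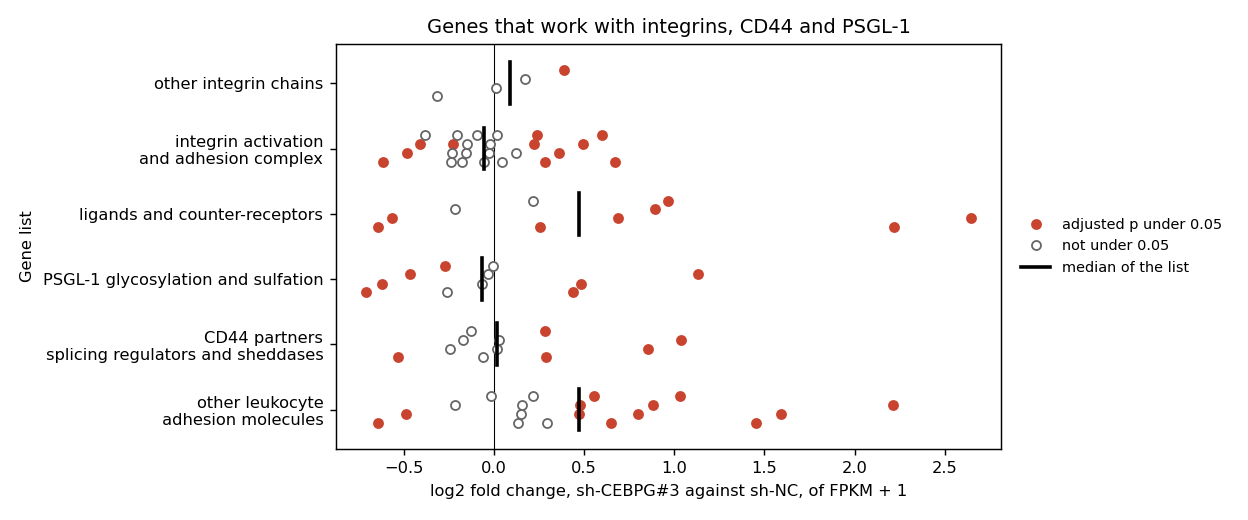
Log2 fold change of each tested gene of the 6 lists, sh-CEBPG#3 against sh-NC on the log2(FPKM + 1) scale. Points are genes, filled where the adjusted p was under 0.05, and black bars are list medians. The adhesion complex genes spread to both sides of 0 (median -0.05), while the ligands (0.47) and the other adhesion molecules (0.47) lie mostly to the right.

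Other markers moved in the same libraries as ITGAX, ITGB2, ITGB1 and ITGA5. Of 11 monocyte and macrophage markers, 10 had values and 6 were tested, of which 4 rose (LYZ, CD68, CSF1R and FCGR1A) and 1 fell (S100A9). Of all genes tested, 18.5% rose and 23.8% fell. The list summed to 747 and 819 FPKM in the control libraries, against 3376 and 3225 FPKM upon CEBPG knockdown, most of it LYZ, while CD163 and VCAN had means under 1 FPKM in both groups. All 8 tested of 9 interferon response genes rose, where 18.5% of all genes tested did. IFIT1, among these 8, reached the filter of 0.5 FPKM through the sh-CEBPG#3 libraries alone, which left little room for another call. MX1, the gene of the list that was too low to be tested, overlapped between the groups. It had 0.122 and 0.235 FPKM in the control libraries, against 0.230 and 0.200 FPKM upon CEBPG knockdown. The interferon list summed to 83.8 and 93.3 FPKM in the control libraries, against 1004 and 967 FPKM upon CEBPG knockdown. The part of all these markers in the values of the adhesion genes was not tested.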

How the data were processed

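RNA-seq of MV4-11 cells was carried out on 2 sh-NC and 2 sh-CEBPG#3 libraries, grouped by their sample titles. The authors extracted total RNA with Trizol, built TruSeq libraries, filtered the reads and mapped them, with HISAT2 2.0.5 and hg38 named in the submitters' processing notes. The deposited values are FPKM per RefSeq transcript and library. The program that computed them and the annotation release are not given in the sources used here.

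Of 28780 rows, 199 had no value. FPKM was summed by symbol, and 166 rows had no symbol and were kept by themselves. Genes averaging 0.5 FPKM or more over the 4 libraries were compared as log2(FPKM + 1) with limma 3.58.1 in R 4.3.3 (lmFit, eBayes with a trend) and Benjamini-Hochberg adjustment over all genes tested. The code of the fit was tried on simulated data with normal spread and few changed genes. That setting is unlike these data, so the trial says nothing on the calls made here. Ratios and shares were computed per library and compared with an exact permutation test. Depth is unknown, since low values showed no steps of single reads (at most 1.42% of 565 genes under 0.06 FPKM had the same ratio between the sh-NC libraries), so no counting interval is given. Positions and promoter windows are those of RefSeq on GRCh38.p14, which were checked against the hg38 sequence with Python 3.11.15, and exon overlaps are from GENCODE on the same assembly.

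The genes, lists and tests were chosen with earlier results of these data known. Named genes are the 10 adhesion genes, CEBPG and, from each list, the genes past the study's threshold or, with fewer than 2 of these, the 2 of smallest p with a mean of at least 5 FPKM. Genes of these lists named beyond this rule were chosen after their values were seen. Refits used a pseudocount of 0.1 or 0.01, left out the filter or raised it to 1 FPKM, and used equal totals, quantile normalization, a replicate block, the highest row per gene and each library left out in turn. Tests of single rows were added after the data were seen.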

Additional observations from a re-analysis of the deposited data

How the results depend on the processing

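ITGAX, ITGB2, ITGB1, ITGA5 and ITGAL kept their direction in all 60 refits of the gene values (12 alternatives each). In the refits on all 4 libraries their adjusted p in limma was at most 0.0267. Most of the 60 could not change direction. With no filter, the filter of 1 FPKM and the replicate block, the log2 fold change is by construction that of the main fit. The same holds for the highest row of ITGAX and ITGA5, which have a single row. For none of these called genes did the groups overlap. A pseudocount of 0.1 or 0.01, or leaving out 1 library, could therefore not reverse a direction either. The log2 fold changes without 1 library were 0.84 to 0.99 for ITGAX, 0.79 to 0.97 for ITGB2, 0.71 to 0.87 for ITGB1, 0.66 to 0.72 for ITGA5 and -0.58 to -0.49 for ITGAL. A fit without 1 library leaves a lone library that is assumed to vary like the other group. Of the 60 refits of the other 5 genes, 3 passed, all for SELPLG, and 2 that did not pass reversed in direction, both with the highest row per gene: ITGAM was -0.020 and SELPLG -0.19. Row by row, NM_000632 of ITGAM was also -0.020, NM_003006 of SELPLG -0.19 and NR_104181 of ITGB7 0.38, and the cause was not tested. The study's threshold was passed by 0 of the 10 genes, and by 1, ITGAX, with a pseudocount of 0.1 and by 1 with 0.01. Over all genes it was passed by 286 higher and 128 lower genes, by 490 and 337 with 0.1 and by 509 and 373 with 0.01. With the highest row per gene 1329 genes were higher and 1535 lower at an adjusted p under 0.05 in limma, against 2244 and 2884 with the sum. Adhesion complex genes that rose numbered 7, but 4 with no filter and 3 with the highest row, and those that fell numbered 4, but 7 with equal totals. CD44 partners that fell numbered 1, but 2 with equal totals or quantile normalization. Of the other integrin chains 1 fell with equal totals. The ligands that fell numbered 2, but 1 with the highest row, and the other adhesion molecules that fell 2, but 1 with the highest row or no filter. Libraries with the same replicate number were not taken as pairs, since the correlation of their deviations was 0.061. With the replicate block 4 of the 10 genes were higher and 1 lower, as without it, and over all genes 2088 were higher and 2673 lower. FPKM values carry no counts, so low genes such as ITGAX cannot be weighted by their depth.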
